A study of Homo sapiens with 24 samples.

Results

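Ferritin, the transferrin receptor and the enzymes of polyamine metabolism are textbook cases of genes whose output is set after transcription, and 7 of them were taken as a group: FTH1, FTL and TFRC for iron, and ODC1, OAZ1, AMD1 and SAT1 for polyamines. The members were given as a list of Ensembl transcript IDs with their gene symbols: ENST00000273550 (FTH1), ENST00000331825 (FTL), ENST00000360110 (TFRC), ENST00000234111 (ODC1), ENST00000322297 (OAZ1), ENST00000368885 (AMD1) and ENST00000379270 (SAT1). Of these 7, 6 had a row among the 11396 transcripts of the deposited data, and the 6 stood in both tables and passed the filter on low values in both. No row carried the ID listed for OAZ1, which was not analysed here. Ribosome footprints (stretches of mRNA shielded from nuclease by ribosomes) and lysate RNA were sequenced in 24 libraries, 3 for each assay and cell group. All cells descend from MDA-MB-231, a line of human breast cancer. LM2 cells, whose label calls them highly metastatic to lungs, were compared with parental cells, labelled poorly metastatic. In the other experiment MDA-MB-231 cells carrying a guide against HNRNPC (sgHNRNPC, labelled as a knockdown) were compared with those carrying a control guide (sgCTRL), and both were labelled poorly metastatic. The product of HNRNPC binds pre-mRNA in the nucleus. Its own level was not analysed here, since the deposited tables do not pair transcript IDs with gene names, and for the same reason the other genes of the iron and polyamine pathways and the markers of the cell line were not analysed. Whether the knockdown or LM2 cells came from single clones is not given in the sources used here, nor is how the guide acts.

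Iron regulatory proteins bind a short RNA hairpin, the iron-responsive element, when iron is scarce. In the leader of FTH1 and FTL mRNA, which encode the heavy and light subunits of the iron storage shell ferritin, the bound protein blocks translation. In the 3' untranslated region of TFRC mRNA, which encodes the receptor that brings transferrin-bound iron into cells, it protects the mRNA from decay. Polyamines are made by ODC1, ornithine decarboxylase, which forms putrescine, and by AMD1, S-adenosylmethionine decarboxylase, which supplies the aminopropyl group for spermidine and spermine. SAT1 acetylates spermidine and spermine for breakdown or export. Polyamines act back on these mRNAs through translation: the OAZ1 reading frame is completed by a ribosomal frameshift, AMD1 translation is held down by a short upstream reading frame, and SAT1 translation is known to rise with polyamines.

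The sequences with a known role in this control that lie close to the start of the RNA are shown first, because they are what ribosomes meet before the coding part. They were read from RefSeq windows (GRCh38.p14) that run from 250 bases before to 50 bases after each start, and 6 of the 7 genes had such a window. FTH1 had none, so its leader was not searched. The FTL line runs 5′ to 3′ over chr19:48965330-48965357 on the plus strand, bases 22 to 49 of the RNA, and its capitals mark the bulged C and the loop of the iron-responsive element. The AMD1 line runs 5′ to 3′ over chr6:110874796-110874816 on the plus strand, and its capitals mark the start and stop codons of the upstream reading frame.
FTL: tctgtctcttgCttcaaCAGTGTttgga
AMD1: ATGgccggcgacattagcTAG
The letters searched were a C, any 5 bases and CAGTGN, within the first 50 bases of the transcribed strand and with the 5 bases before the loop required to pair with the 5 after it, G with T allowed. Of 35116 windows of all genes, 8 (0.0228%) held this pattern, among them FTL and ALAS2, another gene known for this hairpin. Without the pairing, the same letters stood in the first 50 bases of 1.67% of windows, and on either strand of the whole 300 bases in 18.5%. Of 3 AMD1 windows, 2 held the frame, 12 or 13 bases into the RNA, with 6 codons before the stop. The other AMD1 window, around the upstream start at the gene's 5′ end, held neither pattern in its first 50 bases. An ATG followed by an in-frame stop was found in the first 50 bases of 10.2% of windows, and the exact AMD1 letters in 2, both of AMD1. The windows of TFRC, ODC1, OAZ1 and SAT1 held neither pattern in their first 50 bases. These matches describe the letters only.

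By the RefSeq table (GRCh38.p14), FTH1 lies on chromosome 11 (61964285 to 61967634), FTL on chromosome 19 (48965309 to 48966879), TFRC on chromosome 3 (196049284 to 196082090), ODC1 on chromosome 2 (10439968 to 10448327), AMD1 on chromosome 6 (110814617 to 110895713) and SAT1 on chromosome X (23783173 to 23786210). RNA reads are not in the tables and were inferred by dividing each value by its library's step, the unit of which all RNA values were whole multiples. So inferred, the transcripts of the LM2 table summed to 26810212 to 52584688 reads per library and those of the knockdown table to 23344230 to 28334050, and no member had fewer than 1135 inferred RNA reads in any library. The depth of the footprints in reads is unknown. Ferritin genes have near-identical processed pseudogenes, and how shared reads were assigned is not given in the sources used here, so FTH1 and FTL levels are uncertain in absolute terms. Nothing says that replicates were separate cultures, and the spread between them, on which the p-values rest, may be technical. The fits also drew each transcript's spread toward a trend over all transcripts, so small p-values do not rest on a member's own replicates alone.

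Ferritin mRNAs were among the most abundant RNAs in the cells and among those with the fewest footprints per RNA. Values are the authors' normalized signal per transcript, not per length. Which part of each RNA was counted is not given in the sources used here. If footprints of the coding part were set against reads of the whole RNA, differences between genes also hold the share of each RNA that is coding. FTH1 had an RNA value of 48422 ± 1050 in parental cells (SD, n = 3), the 57th highest of 9342 transcripts tested, and a footprint value of 140 ± 16.7, the 2239th highest. Its footprints per 1000 RNA were 2.74, 2.65 and 3.29 in the 3 parental replicates, pairing libraries by number, against a median of 42.5 over all transcripts tested, and its rank on the log2 scale was 16th from the bottom. Among the 100 most abundant RNAs of parental cells, whose median was also lower than that of all transcripts (-5.95 against -4.54 for log2 footprints per RNA), FTH1 ranked 2nd from the bottom. FTL had 5.60, 4.96 and 5.08 footprints per 1000 RNA in parental cells and ranked 52nd from the bottom, with an RNA value of 30782 ± 1070 and a footprint value of 160 ± 10.9.

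The control guide cells, in a table normalized separately, gave the same placing of both ferritin mRNAs. FTH1 ranked 9th and FTL 37th from the bottom of 8283 transcripts tested for log2 footprints per RNA. FTH1 had 2.37, 2.58 and 2.52 footprints per 1000 RNA in the sgCTRL replicates, and FTL had 3.45, 4.51 and 3.47, against a median of 35.7. FTH1 was below FTL in each of the 3 replicates of both control groups, and their ranges did not overlap.

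The other members stood higher. In parental cells, footprints per 1000 RNA were 8.67, 10.2 and 9.24 for SAT1, 15.6, 16.5 and 15.7 for AMD1, 24.5, 25.4 and 24.5 for ODC1, and 49.7, 50.6 and 43.0 for TFRC. This order ran without overlap between neighbours, and TFRC alone lay above the median of all transcripts, at the 56.4th percentile. In sgCTRL cells the 3 replicates gave 10.1, 8.15 and 11.9 for SAT1, 14.6, 18.4 and 16.2 for AMD1, 18.7, 19.5 and 16.4 for ODC1, and 16.4, 30.4 and 22.7 for TFRC. There AMD1 overlapped ODC1, and ODC1 overlapped TFRC, so those neighbours did not differ beyond their spread. All 6 members were below the median in sgCTRL cells, where TFRC was at the 26.7th percentile, and 5 of 6 in parental cells. The 100 most abundant RNAs of sgCTRL cells also had a lower median than all transcripts (-6.07 against -4.78, log2). ODC1 (-5.76) and AMD1 (-5.92) lay above that lower median. The count was not compared with other RNAs of like level. SAT1, the enzyme of polyamine breakdown, was the lowest of the 3 polyamine genes in both control groups, at percentiles 3.05 and 5.20.

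**Figure D1:**
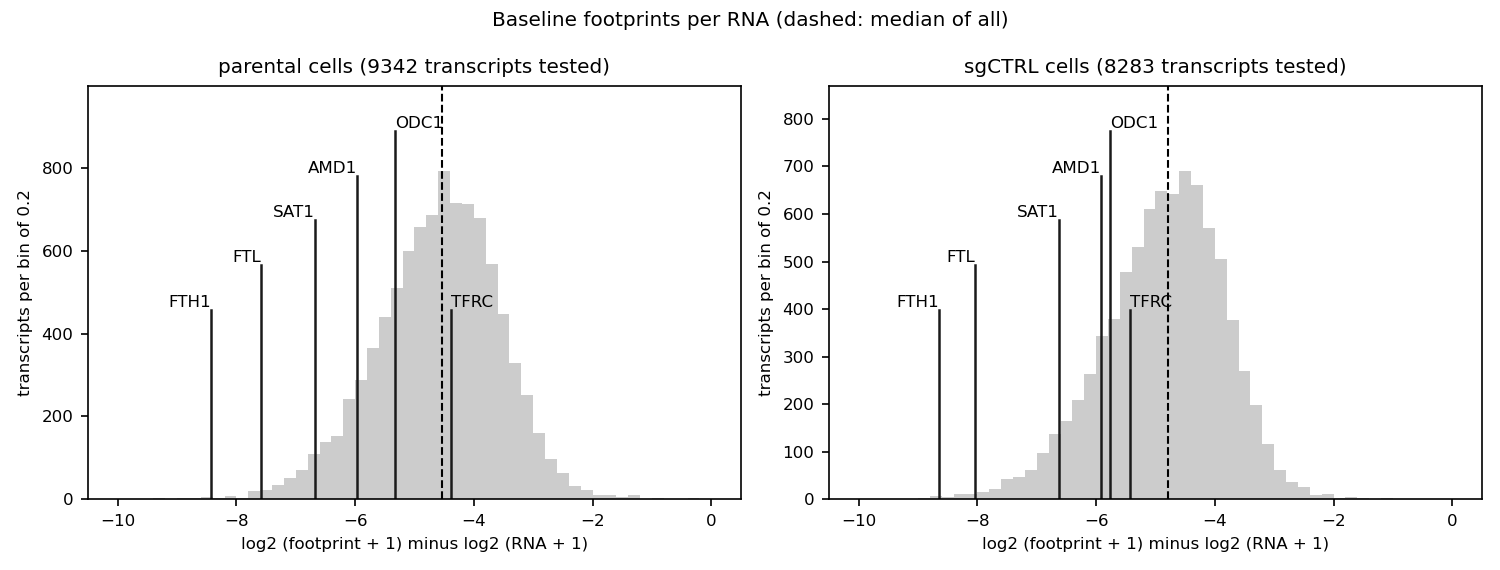
Distribution of log2 footprints per RNA (x axis, log2 scale, pseudocount of 1) over all transcripts tested in parental cells (left) and sgCTRL cells (right), with vertical lines at the 6 members and a dashed line at the median of all. FTH1 and FTL lie in the lowest tail of both distributions, and TFRC lies right of the median in parental cells only.

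In LM2 cells, footprints of the iron genes and AMD1 were lower and those of ODC1 higher than in parental cells. In RNA, FTH1, TFRC and AMD1 fell by less than their footprints, FTL was not called, and ODC1 rose by more than its footprints, and none of these differences between RNA and footprints passed the efficiency test. Changes are log2 values with their standard error from limma, tested across all transcripts with Benjamini-Hochberg adjustment, and a change was called at an adjusted p under 0.05. Footprints rose for 1 and fell for 4 of the 6 members, where 23.8% of all transcripts were called, 9.25% rising and 14.5% falling. Of the 5 footprint calls, that of AMD1 and those of ferritin rested on single libraries, and all 5 were lost without a variance trend in the fit (adjusted p = 0.0645 for TFRC and 0.0876 for ODC1), under which SAT1 was called (0.0337). With the spread from all 12 libraries, footprints of all 6 members were called, SAT1 included (0.00246). RNA rose for 1 and fell for 3, where 53.7% of all transcripts were called, 22.9% rising and 30.8% falling. The median footprint change of the members was -0.32, against -0.001 over all transcripts tested, and the median RNA change was -0.048 against -0.026. In these bulk lysates a change in all cells and a change in some of them cannot be told apart.

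TFRC, the transferrin receptor, had the largest footprint fall of the members. Its footprint values were 100, 74.2 and 112 in the LM2 replicates, against 136, 157 and 131 in the parental replicates. All 3 LM2 values lay below all 3 parental values, and footprints fell by 0.58 ± 0.12 (limma, adjusted p = 0.000645), to 0.67 times the parental level. TFRC RNA values were 2697, 2789 and 2621 in LM2 cells and 2745, 3097 and 3052 in parental cells, which overlap. The RNA fell by 0.13 ± 0.06 (adjusted p = 0.0476), a call at the edge of the threshold that was lost without LM2 replicate 1 (adjusted p = 0.0898), LM2 replicate 3 (0.163), parental replicate 2 (0.193) or parental replicate 3 (0.144). The RNA call was also lost under each of the other scalings of the libraries (adjusted p = 0.103 to 0.189). The efficiency change, which is the footprint change beyond the RNA change, was -0.45 ± 0.16 and was not called (adjusted p = 0.203).

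The ferritin subunits had fewer footprints in LM2 cells at nearly the same RNA level. FTL footprint values were 139, 109 and 128 in LM2 cells and 170, 149 and 162 in parental cells, without overlap, and fell by 0.36 ± 0.11 (limma, adjusted p = 0.0126). FTL RNA values were 31334, 30269 and 31089 in LM2 cells and 30404, 29949 and 31993 in parental cells, a difference of 0.006 ± 0.03 (adjusted p = 0.888, 95% interval -0.06 to 0.07). The FTL efficiency change of -0.36 ± 0.11 missed the threshold (adjusted p = 0.0959), but passed it without LM2 replicate 1 (-0.43, adjusted p = 0.0217). Without any other single replicate it did not pass (adjusted p = 0.139 to 0.309), and it passed in 3 of 16 repeats under other settings.

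FTH1, the heavy subunit, which holds the ferroxidase centre, had footprint values of 120, 103 and 112 in LM2 cells and 136, 126 and 159 in parental cells. The groups did not overlap, and footprints fell by 0.32 ± 0.11 (limma, adjusted p = 0.0328). FTH1 RNA fell by 0.09 ± 0.03 (adjusted p = 0.00881), a call lost without a variance trend (0.119) and with the spread taken from all 12 libraries (0.374), and its efficiency change was -0.22 ± 0.10 (adjusted p = 0.341). The footprint falls of ferritin rested on single libraries: that of FTH1 lost its call without LM2 replicate 2 (adjusted p = 0.163), LM2 replicate 3 (0.0787), parental replicate 1 (0.0532) or parental replicate 3 (0.178), and that of FTL without LM2 replicate 2 (0.132) or parental replicate 1 (0.0634). LM2 replicate 2 had the lowest footprint value of its group for FTH1, FTL, TFRC, ODC1 and AMD1.

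**Figure D2:**
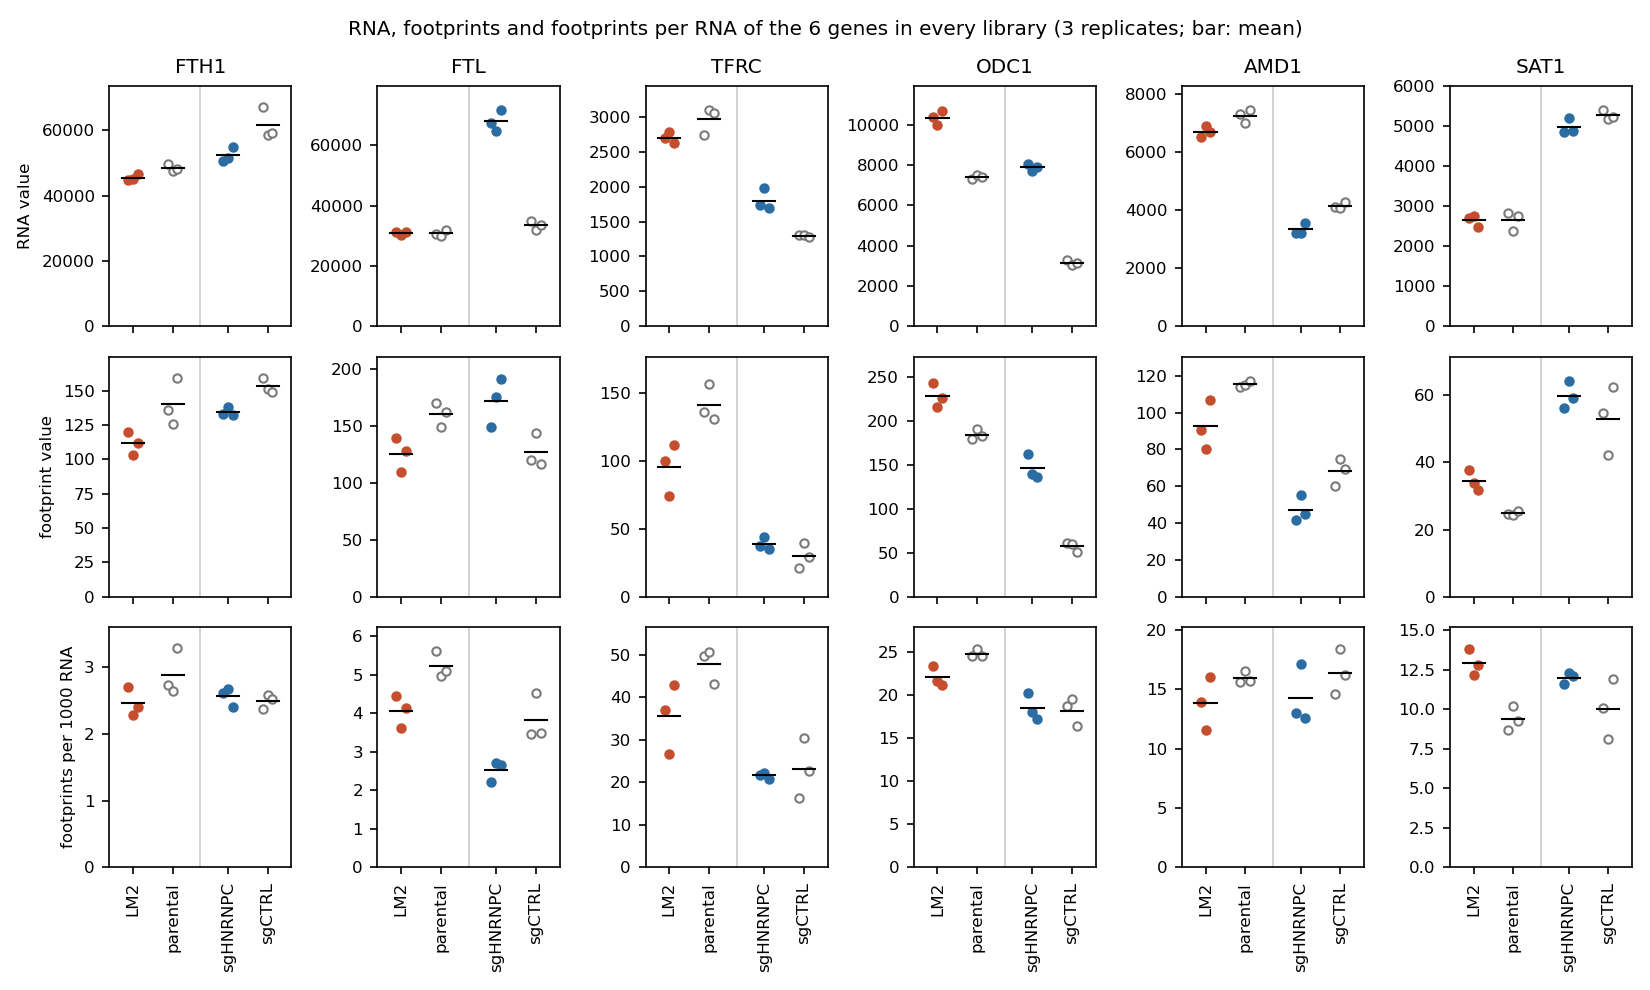
RNA value (top row), footprint value (middle row) and footprints per 1000 RNA (bottom row) of the 6 members in every library, with filled points for LM2 and sgHNRNPC cells, open points for parental and sgCTRL cells and bars at the mean of 3 replicates. The vertical line in each panel divides the 2 tables, which were normalized separately, and FTL RNA and ODC1 RNA and footprints of sgHNRNPC cells stand clear of sgCTRL cells.

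Polyamine genes moved in different directions in LM2 cells. ODC1, the enzyme of the first step, had RNA values of 10388, 9976 and 10660 in LM2 cells, against 7312, 7515 and 7424 in parental cells, and footprint values of 243, 215 and 226 against 179, 191 and 182. Neither readout overlapped between the groups. ODC1 RNA rose by 0.48 ± 0.04 (limma, adjusted p = 4.59e-10), 1.39-fold, and footprints rose by 0.30 ± 0.09 (adjusted p = 0.0124), 1.24-fold. The efficiency change was -0.17 ± 0.08 (adjusted p = 0.362).

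AMD1 had footprint values of 90.5, 80.1 and 107 in LM2 cells and 114, 115 and 117 in parental cells, and fell by 0.33 ± 0.12 (limma, adjusted p = 0.0417). AMD1 RNA values were 6531, 6895 and 6714 in LM2 cells and 7302, 6995 and 7457 in parental cells, and fell by 0.11 ± 0.04 (adjusted p = 0.0213). Both calls were near the threshold. The footprint call was lost without LM2 replicate 1 (adjusted p = 0.0868) or 2 (0.256) and without parental replicate 1 (0.0736), 2 (0.0798) or 3 (0.0872), and the RNA call without LM2 replicate 1 (0.0892) or 3 (0.0536) and without parental replicate 1 (0.0505) or 3 (0.0923). The RNA call was also lost under each of the other scalings of the libraries (adjusted p = 0.0632 to 0.404).

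SAT1 was the one member whose mean footprints per 1000 RNA were higher in LM2 cells, at 13.0 ± 0.807, than in parental cells, at 9.37 ± 0.77 (SD, n = 3 each). Its footprint values were 37.6, 33.7 and 31.8 in LM2 cells, all above the 24.5, 24.3 and 25.5 of parental cells, at overlapping RNA values of 2716, 2753 and 2479 in LM2 cells and 2828, 2385 and 2757 in parental cells. The footprint change was 0.45 ± 0.21 (limma, adjusted p = 0.118) and the efficiency change 0.45 ± 0.15 (adjusted p = 0.149), and neither passed the test. These footprint values were the lowest of the 6 members in both LM2 and parental cells.

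Translation efficiency was called for 0 of the 6 members in LM2 cells by limma, with 4 (FTH1, FTL, TFRC and SAT1) at an unadjusted p under 0.05. Of the 9342 transcripts tested, 1288 were at an unadjusted p under 0.05. Over all transcripts tested 1.63% were called, 0.471% rising and 1.16% falling. The efficiency change was negative for 5 of the 6, with a median of -0.22 against 0.041 over all transcripts. These 5 lay between percentiles 3.09 (TFRC) and 17.2 (ODC1) of all efficiency changes, and SAT1 at 94.5. The share of all transcripts with a negative change was not counted. All members were measured in the same libraries, so the 5 are not independent observations. The interval of the change was -0.78 to -0.11 for TFRC and -0.44 to -0.008 for FTH1, so that tests not passed do not show that efficiency was alike. The efficiency fit took 1 spread for RNA and footprints together. Its standard error was 0.148 for SAT1, below the 0.211 of footprints alone, and 0.16 for TFRC, above the 0.124 of footprints. Some efficiency intervals may therefore be too narrow, and some unadjusted p-values too small.

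**Figure D3:**
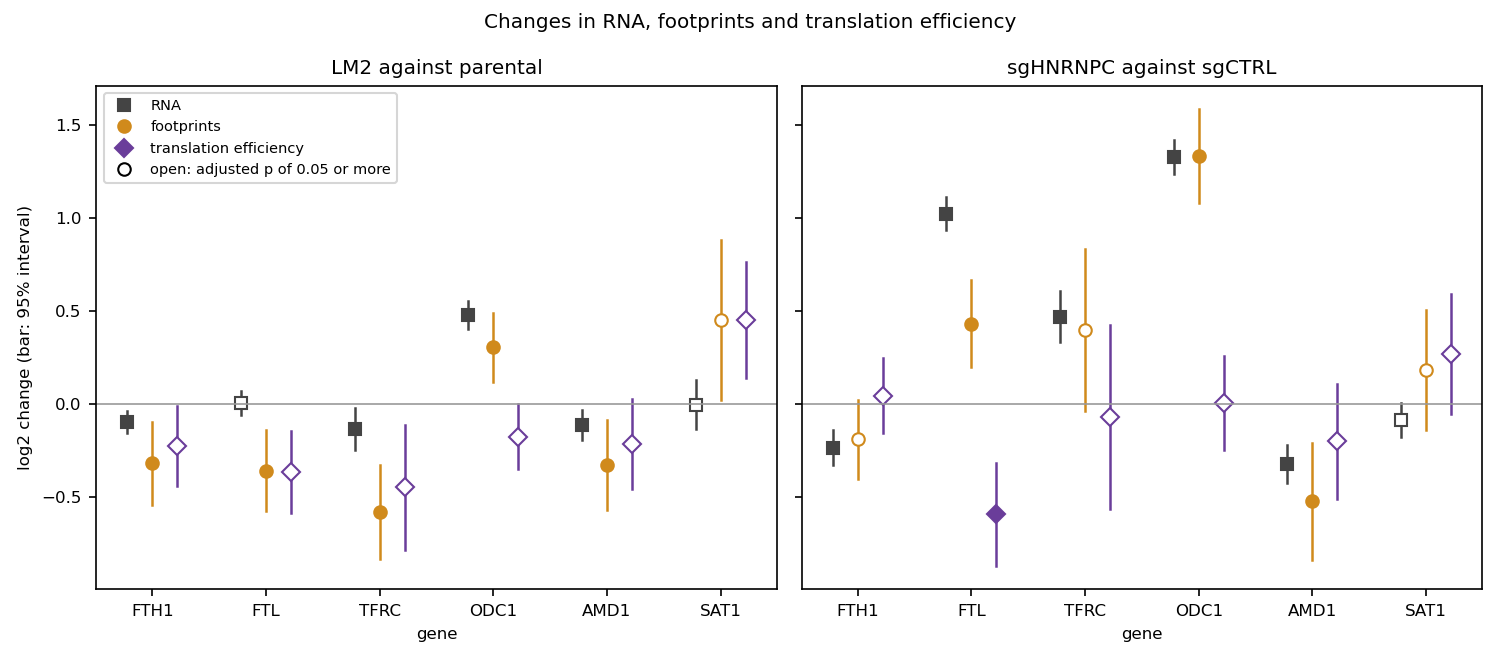
Log2 change of RNA (squares), footprints (circles) and translation efficiency (diamonds) of each member in LM2 against parental cells (left) and sgHNRNPC against sgCTRL cells (right), with 95% intervals, filled where the adjusted p was under 0.05. FTL in sgHNRNPC cells is the one filled diamond, at -0.59.

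In HNRNPC knockdown cells the RNA of FTL, TFRC and ODC1 was higher and that of FTH1 and AMD1 lower than in control guide cells. RNA rose for 3 and fell for 2 of the 6 members, where 73.5% of all transcripts tested were called, 28% rising and 45.4% falling. Footprints rose for 2 and fell for 1, where 36.2% of all were called, 15.5% rising and 20.7% falling. Efficiency fell for 1, FTL, where 5.46% of all were called, 3.72% rising and 1.74% falling. The median RNA change of all transcripts was -0.105 as deposited, so RNA changes are also given relative to it. The median efficiency change of all transcripts was 0.087. Relative to that median, efficiency changed by -0.68 for FTL, -0.29 for AMD1, -0.16 for TFRC, -0.08 for ODC1, -0.04 for FTH1 and 0.18 for SAT1.

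FTL and FTH1, the subunits of the same shell, parted in RNA. FTL RNA values were 67478, 64569 and 71657 in sgHNRNPC cells, against 34879, 31887 and 33502 in sgCTRL cells. The lowest sgHNRNPC value lay far above the highest sgCTRL value, and FTL RNA rose by 1.02 ± 0.04 (limma, adjusted p = 7.82e-17), 2.03-fold, or by 1.13 relative to the median of all transcripts. FTH1 RNA values were 50710, 51338 and 54862 in sgHNRNPC cells and 66957, 58568 and 59084 in sgCTRL cells, also without overlap. FTH1 RNA fell by 0.23 ± 0.05 (adjusted p = 7.42e-05), or by 0.13 relative to the median.

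Within a library, FTL RNA per FTH1 RNA was 1.33, 1.26 and 1.31 in the sgHNRNPC replicates, against 0.521, 0.544 and 0.567 in the sgCTRL replicates. For footprints the ratio was 1.12, 1.27 and 1.44 in sgHNRNPC cells, against 0.759, 0.951 and 0.78 in sgCTRL cells. The log2 difference was 1.25 for RNA and 0.62 for footprints, higher in all 3 sgHNRNPC replicates for both, with an exact permutation p of 0.1 (two-sided), the smallest that 3 against 3 allows. These ratios do not depend on the scaling of a library.

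FTL footprints rose by less than its RNA. Footprint values were 149, 175 and 191 in sgHNRNPC cells, all above the 120, 144 and 116 of sgCTRL cells, and rose by 0.43 ± 0.11 (limma, adjusted p = 0.00351), 1.35-fold, a call lost without a variance trend (0.067). Footprints per 1000 RNA were 2.21, 2.71 and 2.66 in sgHNRNPC cells, against 3.45, 4.51 and 3.47 in sgCTRL cells, without overlap. FTL efficiency fell by 0.59 ± 0.13 (adjusted p = 0.0168). The call was lost without sgCTRL replicate 2, which had the highest ratio (-0.46, adjusted p = 0.0984), and without sgHNRNPC replicate 2 (-0.64, adjusted p = 0.0501), and also under other estimates of the spread: with the replicate number as a block (adjusted p = 0.0521), with footprints and RNA paired by number (0.227) and without a variance trend (0.0663). After the fall FTL ranked 5th and FTH1 6th from the bottom of 8283 transcripts in sgHNRNPC cells, with overlapping ranges.

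FTH1 footprints were 133, 138 and 132 in sgHNRNPC cells and 159, 151 and 149 in sgCTRL cells. The change of -0.19 ± 0.10 did not pass the test (limma, adjusted p = 0.162; 0.0297 with the spread from all 12 libraries), and the efficiency change was 0.05 ± 0.10 (adjusted p = 0.831, 95% interval -0.16 to 0.25). TFRC RNA values were 1732, 1979 and 1690 in sgHNRNPC cells, all above the 1309, 1301 and 1282 of sgCTRL cells, and rose by 0.47 ± 0.07 (adjusted p = 8.07e-07), 1.38-fold. Relative to the median of all transcripts the rise was 0.57. TFRC footprints were 37.7, 43.9 and 35.2 in sgHNRNPC cells and 21.4, 39.6 and 29.1 in sgCTRL cells, which overlap. Their change of 0.40 ± 0.21 did not pass the test (adjusted p = 0.144), but did without sgCTRL replicate 2 (0.62, adjusted p = 0.0374). It passed in only 1 of 15 repeats under other settings, and was 0.19 without sgCTRL replicate 1 (adjusted p = 0.543).

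ODC1 had the largest change of the members in both RNA and footprints. ODC1 RNA values were 8044, 7707 and 7907 in sgHNRNPC cells, against 3265, 3048 and 3125 in sgCTRL cells, and rose by 1.33 ± 0.04 (limma, adjusted p = 1.1e-18), 2.51-fold, or by 1.43 relative to the median. This rise was at the 99.2th percentile of all transcripts tested. Footprint values were 162, 139 and 136 in sgHNRNPC cells, against 61.1, 59.6 and 51.1 in sgCTRL cells, and rose by 1.33 ± 0.12 (adjusted p = 6.5e-10), 2.52-fold. The groups were far apart in both readouts, and footprints per 1000 RNA overlapped, at 20.2, 18.0 and 17.2 in sgHNRNPC cells and 18.7, 19.5 and 16.4 in sgCTRL cells. The efficiency change was 0.006 ± 0.12, with a 95% interval of -0.24 to 0.26 (adjusted p = 0.984).

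AMD1 fell in both readouts in the knockdown cells. Its RNA values were 3204, 3228 and 3571 in sgHNRNPC cells, against 4123, 4069 and 4285 in sgCTRL cells, and fell by 0.32 ± 0.05 (limma, adjusted p = 2.92e-06), or by 0.22 relative to the median. Its footprint values were 41.7, 55.3 and 44.9 in sgHNRNPC cells and 60.0, 74.8 and 69.2 in sgCTRL cells, without overlap, and fell by 0.52 ± 0.15 (adjusted p = 0.00865). Without sgHNRNPC replicate 1 the footprint change was -0.44 (adjusted p = 0.0541). The efficiency change was -0.20 ± 0.15 (adjusted p = 0.474).

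SAT1 passed no test in the knockdown cells. SAT1 RNA values were 4859, 5198 and 4874 in sgHNRNPC cells and 5408, 5180 and 5237 in sgCTRL cells (-0.08 ± 0.04, limma, adjusted p = 0.0865), a change of 0.02 relative to the median whose sign turned with the scaling. Without sgHNRNPC replicate 2 the RNA change passed as a fall (-0.12, adjusted p = 0.0422), and after quantile normalization as a rise (0.112, adjusted p = 0.0209). Footprints were 56.2, 64.2 and 59.0 in sgHNRNPC cells and 54.6, 42.2 and 62.3 in sgCTRL cells. The efficiency change was 0.27 ± 0.15 (adjusted p = 0.329).

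**Figure D4:**
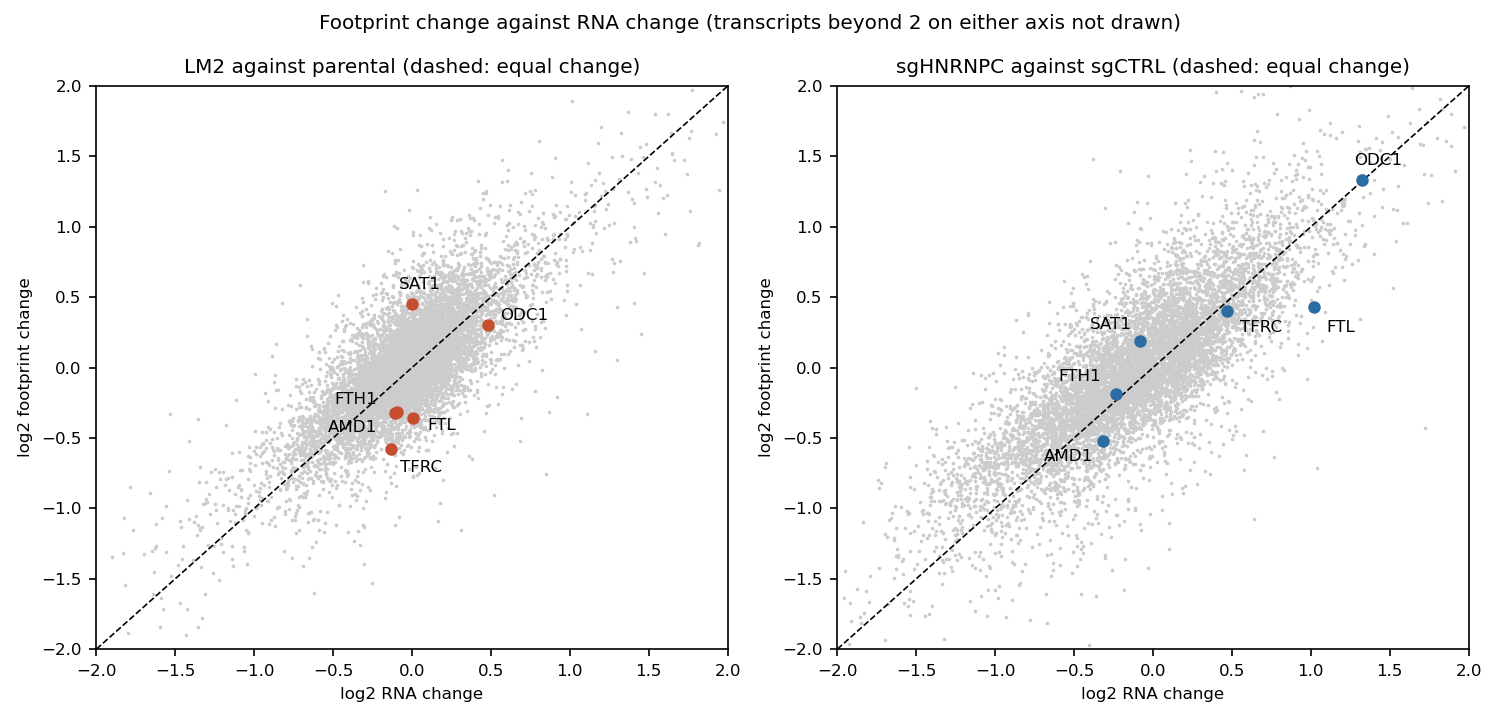
Log2 footprint change (y axis) against log2 RNA change (x axis) for all transcripts tested (grey) and the 6 members (coloured, labelled) in LM2 against parental cells (left) and sgHNRNPC against sgCTRL cells (right). In the knockdown ODC1 lies on the line of equal change at 1.33 on both axes and FTL lies below it, at 1.02 for RNA and 0.43 for footprints.

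The experiments share no libraries. ODC1 RNA and footprints rose in both, by 0.48 and 0.30 in LM2 cells and by 1.33 and 1.33 in knockdown cells, and AMD1 RNA and footprints fell in both, by 0.11 and 0.33 in LM2 cells and by 0.32 and 0.52 in knockdown cells. The AMD1 calls in LM2 cells were weak: RNA kept its call in 7 and footprints in 9 of 16 repeats under other settings. FTH1 RNA fell in both, by 0.09 and 0.23. RNA was called as falling for 30.8% of all transcripts in LM2 cells and 45.4% in knockdown cells. In that order, the RNA falls lay at percentiles 40.3 and 39.3 of all changes for FTH1 and 38 and 32.8 for AMD1. AMD1 footprint falls lay at percentiles 16.6 and 15.6, and ODC1 RNA rises at 93.8 and 99.2. How many of all transcripts moved alike in both experiments was not counted. FTL and TFRC differed in direction: FTL footprints fell by 0.36 in LM2 cells and rose by 0.43 in knockdown cells. TFRC RNA fell by 0.13 in LM2 cells, a call kept in 6 of 16 repeats under other settings, and rose by 0.47 in knockdown cells. The difference between the experiments was not tested.

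Transcripts with the most similar pattern were sought over the 24 libraries, with log2 values centred within each table and assay, among 8171 transcripts tested in both tables. Pearson's r with ODC1 was 0.97 for both ENST00000307126 and ENST00000175506, whose RNA changes were 0.19 and 0.29 in LM2 cells and 0.91 and 1.89 in knockdown cells. With FTH1 it was 0.90 for ENST00000228318 and 0.87 for ENST00000357559, whose RNA changes were -0.31 and -0.22 in knockdown cells. Among the members, r with ODC1 was 0.75 for FTL, 0.43 for TFRC, 0.18 for SAT1, -0.65 for FTH1 and -0.81 for AMD1. The 24 points fall into 8 groups of 3 libraries and are the same libraries for every transcript, so these values are descriptions.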

How the data were processed

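By the labels' protocols, cells were lysed with cycloheximide, footprint libraries followed McGlincy and Ingolia, and the SMARTer pico kit served for RNA. The submitters' processing notes name hg38, SAMtools, UMI-tools, Bowtie2 2.3.5 and cutadapt 2.3, without roles. The deposited tables, 1 per experiment, hold normalized signal for each transcript, by the authors' scaling. RNA values were whole multiples of 1 step per library (100% within 0.001), from which RNA reads were inferred. Footprint values had no common step, so their depth is unknown and no count model was run. The sources used here do not give the scaling, annotation or filter. Parental columns carry only the line's name.

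Transcripts with a mean of at least 10 in both assays were tested (9342 and 8283) on log2(value + 1), which understates changes of low values, with limma 3.58.1 in R 4.3.3 (variance trend, two-sided, Benjamini-Hochberg over all transcripts, threshold 0.05). Efficiency was the interaction of assay and cell group over 12 libraries, and RNA and footprints were each tested on 6. The interaction used 1 spread per transcript for both assays, although the assays differ in spread. Tests stayed within a table. The fits were also run on simulated data with independent noise and planted changes in far fewer transcripts than were called for RNA here. No result given here rests on that run. Gene symbols came with the member list, whose members, like the lists and tests, were chosen with earlier results of these data known. Named transcripts were the members and the 2 most like FTH1 and the 2 most like ODC1. In the tests as deposited, replicate numbers were not used as a pairing. Deviations of same-numbered libraries correlated weakly (-0.2 to 0.03 between cell groups, and -0.01 to 0.13 between footprints and RNA, 12 pairs each). Such values cannot show whether those libraries came from the same lysate. Alternatives were other pseudocounts, filters, scalings, blocks and spreads, and leaving out each replicate.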

Additional observations from a re-analysis of the deposited data

How the results depend on the processing

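Over 36 changes of single members, 493 of 570 repeats under other settings kept the direction and the side of the threshold, 46 lost a call, 9 gained one and 22 turned in sign. No change called as deposited turned in sign. Among the 22, SAT1 RNA in the knockdown was also called, as a rise, after quantile normalization. In LM2 cells the count of members called for efficiency, 0 as deposited, was 1 (FTL, a fall) after quantile normalization and with library medians aligned, and 0 to 1 without single replicates. For RNA, 4 members called became 2 after TMM scaling and with medians aligned and 1 (ODC1) without a variance trend or with the spread from all 12 libraries, and 2 to 4 without single replicates. For footprints, 5 became 3 after quantile normalization and 1 without a variance trend (SAT1, a rise), 6 with the spread from all 12 libraries (SAT1 adjusted p = 0.00246), and 2 to 4 without single replicates. That spread also added FTH1 footprints in the knockdown (0.0297). In the knockdown the 1 efficiency call, FTL, became 0 with the replicate number as a block, with footprints and RNA paired by number and without a variance trend, and 0 to 1 without single replicates, and its change ranged from -0.71 to -0.46. With the replicate block, the other call lost was TFRC RNA in LM2 cells (adjusted p = 0.0562). Correlations of same-numbered deviations between cell groups were -0.2 to 0.03, and between footprints and RNA -0.01 to 0.13. Such low values cannot show whether same-numbered libraries came from the same lysate.

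Signs turned only where the change as deposited was near 0 and not called. SAT1 RNA in LM2 cells was 0.025 after TMM scaling, 0.04 after quantile normalization and 0.021 with medians aligned, and -0.077 to 0.046 without single replicates. FTL RNA in LM2 cells was -0.014 to 0.034 without single replicates (and 0.105, called, after quantile normalization). In the knockdown, ODC1 efficiency was -0.05 with a pseudocount of 5, -0.065 after TMM scaling, -0.064 after quantile normalization, -0.063 with medians aligned and -0.068 to 0.059 without single replicates. FTH1 efficiency was -0.026, -0.012 and -0.024, and SAT1 RNA 0.025, 0.112 and 0.031, under TMM scaling, quantile normalization (SAT1 adjusted p = 0.0209) and aligned medians. TFRC efficiency was -0.29 to 0.144 without single replicates. The causes were not tested. Aligned medians and the spread from all 12 libraries were added after the data were seen. Over all transcripts, efficiency calls ranged from 0 to 310 in LM2 cells (152 as deposited) and from 75 to 629 in the knockdown (452), RNA calls from 2701 to 5810 (5017) and 3101 to 7548 (6084), and footprint calls from 1173 to 3434 (2223) and 1844 to 4094 (2998).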

Other observations

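The balance of the enzymes that feed polyamine synthesis was set side by side within each library. ODC1 RNA per AMD1 RNA was 1.59, 1.45 and 1.59 in LM2 cells, against 1.00, 1.07 and 0.996 in parental cells, and 2.51, 2.39 and 2.21 in sgHNRNPC cells, against 0.792, 0.749 and 0.729 in sgCTRL cells. For footprints, ODC1 per AMD1 was 2.68, 2.69 and 2.11 in LM2 cells, against 1.57, 1.66 and 1.55 in parental cells, and 3.90, 2.51 and 3.02 in sgHNRNPC cells, against 1.02, 0.796 and 0.738 in sgCTRL cells. The groups did not overlap in any of these 4 comparisons, with an exact permutation p of 0.1 (two-sided) in each, the smallest that 3 against 3 allows. The log2 difference was 0.59 for RNA and 0.63 for footprints in LM2 cells, and 1.65 and 1.88 in knockdown cells. This pair was chosen after its values were seen.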
